A study of Mus musculus with 8 samples.

Results

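The 39 Hox genes of the mouse and Pitx1 were followed in cultures of satellite cells, the resident muscle stem cells. Members were all genes whose name on the array was Hoxa, Hoxb, Hoxc or Hoxd followed by a number alone, plus Pitx1. This gave 40 genes on 45 probes, out of 31732 named genes on 39429 probes, with 11 Hoxa, 10 Hoxb, 9 Hoxc and 9 Hoxd genes. The cells came from the extensor digitorum longus (EDL), a fast muscle of the hindlimb. The donors were 8-week-old Dnmt3a-KO mice, labelled male, and WT littermates described as matched for age and sex. Dnmt3a encodes an enzyme that places new methyl groups on DNA. The labels do not say how the gene was deleted, in which cells, or whether animals were pooled. Cells of both genotypes grew for 5 days in growth medium, were plated again at equal numbers and were then kept in differentiation medium, in which their progeny fuse into myotubes. RNA was measured on days 2, 4, 5 and 6 of that medium with 1 one-colour array per genotype and day, so 4 Dnmt3a-KO and 4 WT arrays were compared. No genotype was repeated within a day, and it is not stated whether the days share animals or cultures. Sex-linked transcripts, given below, differed between day 2 and the later days. Every p-value for genotype below therefore rests on the spread between days, which may be partly technical. The limma fit draws each gene's spread toward a value shared by all genes tested, so the error is not the gene's own alone. The p-values for slopes over the days take their error from all 8 arrays around a line, drawn in the same way. They count both arrays of a day as independent, although these share a slide.

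Hox genes encode transcription factors with a shared DNA-binding fold, the homeodomain. They lie in 4 clusters, and the order of the genes along a cluster follows their order of use from head to tail in the embryo, with the highest numbers in the tail and in the outer limb. Pitx1 encodes a homeodomain factor that gives the embryonic hindlimb its identity, and Tbx4 acts beside it. Adult cells of the limb, among them muscle progenitors and fibroblasts, are known to keep part of this positional pattern.

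Some array probes lay within the homeodomain sequence itself. The third helix, the part that reads DNA, was searched for as 5 codons in a row, for asparagine, arginine, arginine, methionine and lysine, in any frame of both strands and with no second motif. Of 39429 probes, 4 held it (0.0101%), and 3 of these were among the 45 member probes. The 2 of members detected on every array, Hoxc11 and Hoxc12, are shown because the homeodomain is alike between Hox genes, and whether these probes also read a related transcript was not tested. Capitals mark the 5 codons, 5′ to 3′. The Hoxc11 probe lies at chr15:102787022-102787081 and the Hoxc12 probe at chr15:102768889-102768948, both on the plus strand of mm9, the build in the file headers.
Hoxc11: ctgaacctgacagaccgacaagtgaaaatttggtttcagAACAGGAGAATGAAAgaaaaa
Hoxc12: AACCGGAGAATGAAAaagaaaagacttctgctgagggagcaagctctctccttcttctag

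RefSeq promoters of the GRCm38.p6 assembly were found for 22 members, in 24 entries. The 250 bases before the start held between 2 and 35 CG pairs, the sites that Dnmt3a can methylate, with a median of 12.5 over the 24 entries against 6 over all 32851 promoters of the table. A CG was searched on both strands at once, since it reads the same on each. At least 1 CG was present in all 24 entries and in 92.1% of all promoters. The upstream 250 bases are shown for Hoxd8, Hoxd9 and Hoxd10, whose signals rose together below, and for Hoxd13, a neighbour that was not detected. All 4 lie on the plus strand of chromosome 2, Hoxd8 at chr2:74704365-74704614, Hoxd9 at chr2:74697513-74697762, Hoxd10 at chr2:74691641-74691890 and Hoxd13 at chr2:74667975-74668224. Capitals mark each CG.
Hoxd8: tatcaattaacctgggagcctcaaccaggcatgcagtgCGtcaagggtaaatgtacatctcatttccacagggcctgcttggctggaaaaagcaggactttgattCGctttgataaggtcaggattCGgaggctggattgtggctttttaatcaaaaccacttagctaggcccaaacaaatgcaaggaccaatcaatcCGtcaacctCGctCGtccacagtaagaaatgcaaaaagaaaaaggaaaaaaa
Hoxd9: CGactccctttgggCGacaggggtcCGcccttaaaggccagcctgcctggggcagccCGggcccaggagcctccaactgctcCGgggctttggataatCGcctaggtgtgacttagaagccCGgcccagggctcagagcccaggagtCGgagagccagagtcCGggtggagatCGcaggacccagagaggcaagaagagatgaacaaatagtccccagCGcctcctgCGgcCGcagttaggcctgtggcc
Hoxd10: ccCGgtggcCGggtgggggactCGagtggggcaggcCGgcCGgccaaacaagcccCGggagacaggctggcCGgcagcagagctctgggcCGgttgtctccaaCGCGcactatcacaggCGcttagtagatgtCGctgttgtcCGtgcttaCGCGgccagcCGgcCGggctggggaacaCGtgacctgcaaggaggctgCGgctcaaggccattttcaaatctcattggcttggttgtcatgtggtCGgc
Hoxd13: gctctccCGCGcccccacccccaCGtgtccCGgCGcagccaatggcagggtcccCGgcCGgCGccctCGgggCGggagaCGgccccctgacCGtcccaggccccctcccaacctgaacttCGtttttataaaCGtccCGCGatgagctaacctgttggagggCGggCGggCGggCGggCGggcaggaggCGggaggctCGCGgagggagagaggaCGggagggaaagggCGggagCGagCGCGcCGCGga
Hoxd8 had 6 CG pairs in this window, Hoxd9 13, Hoxd10 20 and Hoxd13 31. The 11 members with a promoter entry that were detected on every array had a median of 14 CG pairs and a range of 3 to 35. The 5 detected on some arrays had a median of 13, and the 6 detected on none had a median of 12 and a range of 7 to 31. Where a gene had more than 1 entry, the entry with the most CG pairs was counted. These are counts of letters; methylation was not measured.

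Several facts of the whole series touch the results. On each array 61.6% to 67.4% of 43020 non-control spots passed the background flag, and the number of arrays limits the precision. Dnmt3a signal on the Dnmt3a-KO array was 46.2, 19.8, 21.7 and 19.1% of WT on days 2, 4, 5 and 6, and the sources used here do not say whether the probe lies in the deleted part. Both day 2 arrays stood on a slide of their own, scanned on another scanner model with another software version. On them 0 spots had a processed signal at or below 0, against 4775 to 5797 spots on each later array. Their 75th percentiles were 1482 and 1528 intensity units, against 720 to 841 later. The effect of this on dim day 2 values was not tested. All mice are labelled male, yet 4 Y-linked genes (Eif2s3y, Ddx3y, Kdm5d, Uty) passed the flag on both day 2 arrays alone. Xist, an RNA of the silent X chromosome, passed it on the 6 later arrays alone. Eif2s3y signal was 341% (Dnmt3a-KO) and 378% (WT) of the 75th percentile on day 2, and at the floor set for dim signals later. Xist was at that floor on day 2 and at 52.7 to 91.4% later. Slopes and day 2 folds below thus compare arrays that differ in sex-linked transcripts. Day 2 and these differences cannot be told apart. Each day holds both genotypes on 1 slide.

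The cultures carried muscle markers. Of 13 myogenic markers on the array, 12 were well above background on every array, among them Pax7, Myod1, Myog and Des, and Myf5 was so on none. The summed signal of this list ran from 49216 to 51562 in Dnmt3a-KO cells and from 45684 to 55126 in WT cells, where 100 stands for the 75th percentile of an array. Fibroblast and fibro-adipogenic markers were present too, with 13 of 15 well above background on at least 4 arrays and Lum and Dpt on none. Their summed signal was 8254, 2477, 12273 and 3890 in Dnmt3a-KO cells on days 2, 4, 5 and 6, against 3255, 7167, 11407 and 7249 in WT cells. The Dnmt3a-KO sum was thus the higher on days 2 and 5 and the lower on days 4 and 6. On day 2 most of it was 1 collagen gene, Col1a2, at 7493 in Dnmt3a-KO cells and 2454 in WT cells. Without Col1a2, an alternative chosen after the data were seen, the day 2 order turned, with sums of 761 in Dnmt3a-KO cells and 801 in WT cells, while the order on the other 3 days stayed. In bulk RNA, fewer cells of a type and less RNA per cell cannot be told apart.

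The first question was which positional genes the cells carried at all. A gene counts as detected on an array where the scanner software flagged its probe as well above background. A signal flagged on an array can be lower than an unflagged signal on another, as in WT Hoxc8 below. Of the 40 members, 21 were detected on all 8 arrays, 11 on some and 8 on none. The share detected on all arrays was 52.5%, against 53.9% of all 31732 genes, and the share detected on none was 20%, against 25.2%. The clusters differed in these counts. Hoxa had 10 of 11 genes on every array, with Hoxa2 missing from the Dnmt3a-KO arrays of days 4 and 5. Hoxc had 7 of 9, with Hoxc5 missing from WT days 5 and 6 and Hoxc8 from WT days 4, 5 and 6.

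In the Hoxb cluster only Hoxb2, Hoxb4 and Hoxb6 were detected on all 8 arrays. Hoxb3 was detected on days 2 and 4 in both genotypes. Hoxb5 was detected on Dnmt3a-KO days 2 and 4 and on WT day 2, and Hoxb7 on Dnmt3a-KO day 2 and on WT days 4 and 6. Hoxb1, Hoxb8, Hoxb9 and Hoxb13 were detected on none. In the Hoxd cluster only Hoxd8 was detected on every array, and Hoxd9 was missing from WT day 2 alone. Hoxd4 was missing from Dnmt3a-KO day 6 and WT day 2. Hoxd10 was detected on Dnmt3a-KO days 5 and 6 and WT days 4, 5 and 6, and Hoxd11 on days 5 and 6 of both genotypes. Hoxd1, Hoxd3, Hoxd12 and Hoxd13 were detected on none, so detection in this cluster spanned Hoxd4 and Hoxd8 to Hoxd11. Under a less strict flag of the same software, 5 members in place of 8 were detected on no array.

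**Figure D1:**
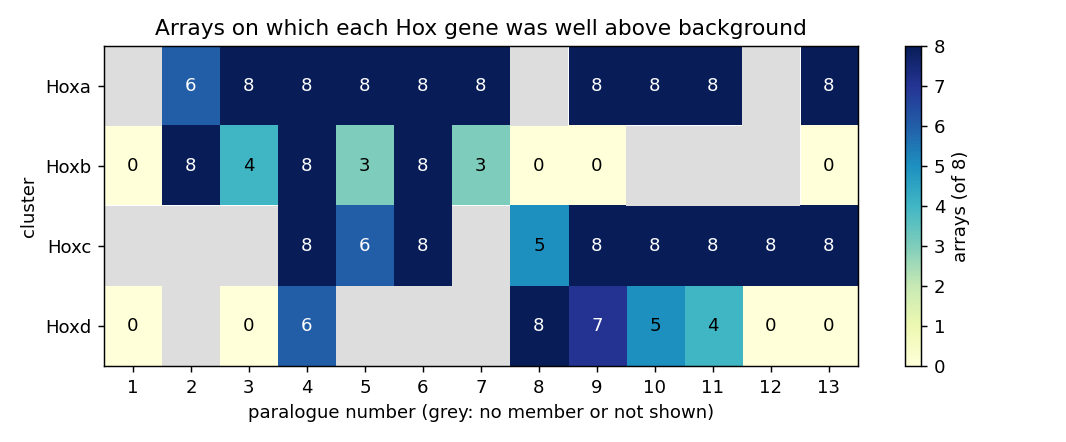
Number of the 8 arrays on which each Hox gene was well above background, with clusters down and paralogue numbers across; colour and digits give the same count, and grey cells are not shown or hold no member. Hoxa and Hoxc are filled nearly throughout, while 4 Hoxb and 4 Hoxd genes stand at 0.

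For 5 members a second probe was present. In Hoxa9 both probes were detected on 8 arrays, with genotype differences of 0.05 and -0.02 (log2, Dnmt3a-KO minus WT). In Hoxa13, Hoxb3 and Hoxd11 the second probe was detected on 0 arrays, so their values below rest on 1 probe. For Hoxb3 that is the third probe in the homeodomain. Hoxa11 was spotted 10 times on each array, and the SD between its spots was 0.07 to 0.18 log2 units.

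The main comparison asked whether deletion of Dnmt3a went with a difference in these genes. Tests were possible for 30 members detected on at least 4 arrays, so counts over these 30 leave out 10 members. With day as a block, 0 of 30 members passed an adjusted p of 0.05 (limma, Benjamini-Hochberg over 19655 genes), where 0.0102% of all genes did. Dnmt3a itself, the deleted gene, did not pass, at a mean log2 difference of -2.01 (limma adjusted p = 0.10). A count of 0 here and for the lists below therefore does not show that a difference is absent. At an unadjusted p under 0.05, 9 members stood out, 5 higher in Dnmt3a-KO cells (16.7%, against 6.17% of all genes) and 4 lower (13.3%, against 6.71%). Together that is 30%, against 12.9% of all genes. The members' median difference was -0.003 log2 units, with a range of -0.70 to 0.89, and the median over all genes was -0.012. Members with 1 sign on every day were evenly split: 6 were higher in Dnmt3a-KO cells on all 4 days (20%, against 10.9% of all genes) and 6 were lower on all 4 (20%, against 11.5%). The higher ones were Hoxa5, Hoxa7, Hoxc5, Hoxc6, Hoxc8 and Hoxc9. Among the lower ones were Hoxa2, Hoxa4, Hoxa13, Hoxb6 and Hoxc11.

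**Figure D2:**
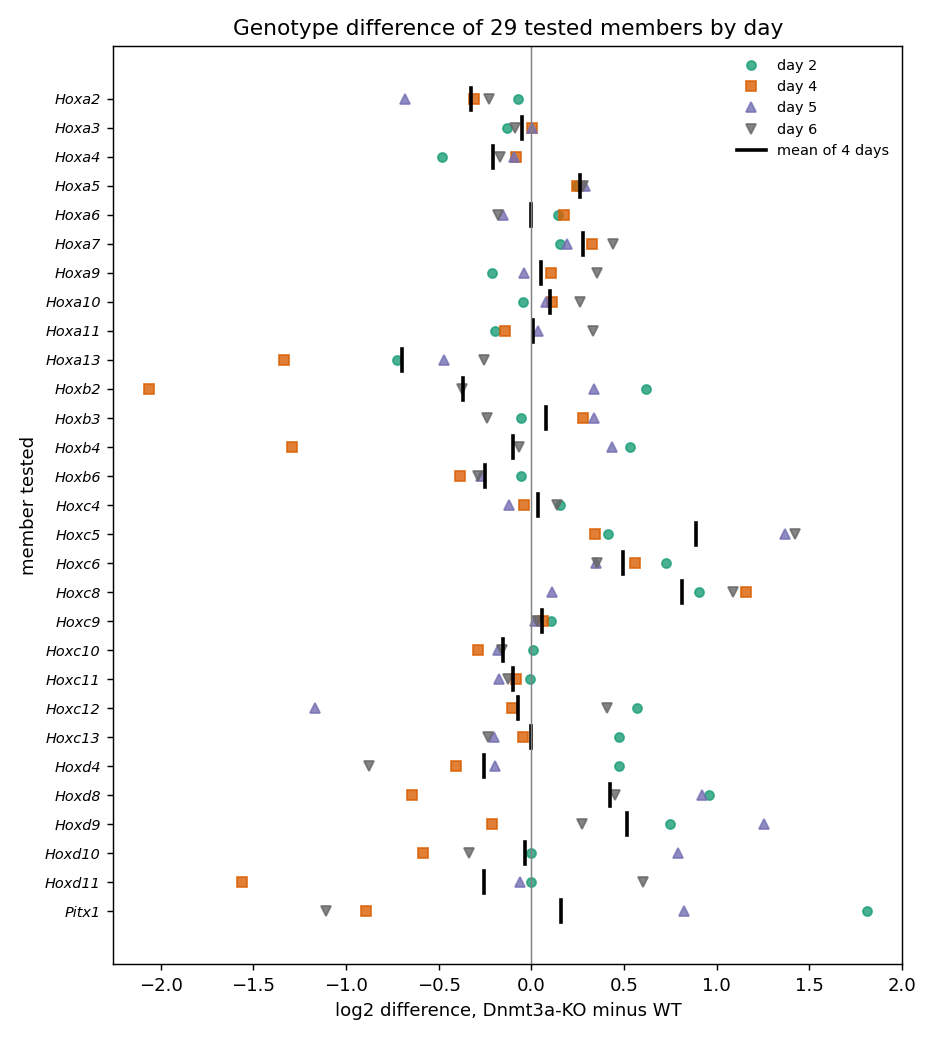
Log2 difference of scaled signal, Dnmt3a-KO minus WT, for 29 of the 30 tested members; each symbol is 1 day with 1 array per genotype and the black bar is the mean of 4 days. Hoxc5, Hoxc6 and Hoxc8 lie right of 0 on every day, while Pitx1 runs from -1.11 to 1.81.

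The second question was what changed over the days. The slope per day, with genotype as a covariate, passed an adjusted p of 0.05 in 13 of 30 members (43.3%), where 45.4% of all 19655 genes passed (limma). This share is near the background. Of the 30, 8 rose, set against 25.9% of all genes, and 5 fell, set against 19.5%. The genes that rose were Hoxa11, Hoxc9, Hoxd4, Hoxd8, Hoxd9, Hoxd10, Hoxd11 and Pitx1, and those that fell were Hoxa5, Hoxa6, Hoxb3, Hoxb6 and Hoxc6. Without day 2, on days 4 to 6 alone, 0 of 30 members and 0 of all genes passed (limma), and at an unadjusted p under 0.05 the count was 0 members and 8% of all genes. Without day 5, 2 members passed, Hoxd9 and Hoxd10. With slide as a random block 6 passed, Hoxa5, Hoxb6, Hoxc9, Hoxd9, Hoxd10 and Pitx1. The slopes of the 30 members had a median of 0.11 log2 units per day, against 0.03 over all genes. The slope did not differ between genotypes in any member or gene after adjustment (limma). At an unadjusted p under 0.05, 1 member did, Hoxc5, which is 3.33% against 1.11% of all genes.

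Pitx1, the hindlimb factor, had the steepest slope of the members. Its signal was 2.67, 14.1, 64.4 and 22.7% of the array's 75th percentile in Dnmt3a-KO cells on days 2, 4, 5 and 6. In WT cells it was not well above background on day 2 and was 26.3, 36.4 and 48.8% on days 4, 5 and 6. The Dnmt3a-KO array was thus the brighter on days 2 and 5 and the dimmer on days 4 and 6. Pitx1 rose by 1.24 ± 0.25 log2 units per day (SE, n = 8 arrays, limma adjusted p = 0.014), the slope ranked 40 from the highest of 19655 genes. With normexp it was 0.39 (limma adjusted p = 0.019). Signal on days 4 to 6 was 10.3-fold that of day 2 in Dnmt3a-KO cells and at least 36.9-fold in WT cells. On days 4 to 6 alone the slope was 0.39 per day (limma adjusted p = 0.81).

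The genotype difference of Pitx1 had opposite signs on different days. It was at least 2.74-fold higher in Dnmt3a-KO than in WT cells on day 2, and the log2 differences on days 4, 5 and 6 were -0.89, 0.83 and -1.11. The mean was 0.16 ± 1.40 (SD over 4 days, limma adjusted p = 0.92), and without day 2 it was -0.39. The signs on days 4, 5 and 6 are those of the summed fibroblast markers, and the sign on day 2 is that of the sum with Col1a2 alone, since without this gene the sum was 761 in Dnmt3a-KO cells and 801 in WT cells. Of the single fibroblast markers only Col1a1 and Col1a2 had the signs of Pitx1 on all 4 days. The summed smooth muscle and Schwann cell markers, given below, had the signs of Pitx1 on all 4 days. The part of any of these cell types in the Pitx1 result was not tested. The Pitx1 probe lies on the minus strand at chr13:55926417-55926476 (mm9).

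**Figure D3:**
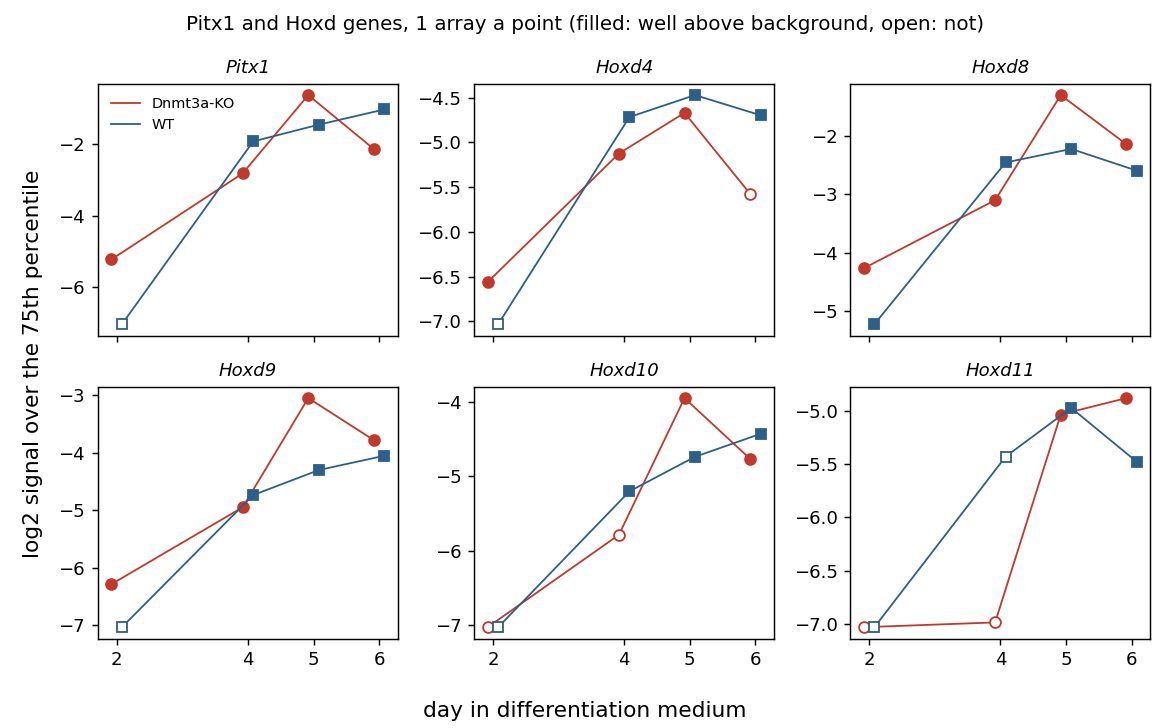
Log2 signal over the array's 75th percentile of Pitx1 and the 5 tested Hoxd genes against day, Dnmt3a-KO as circles and WT as squares, 1 array a point; open symbols were not well above background, and the lowest of them stand at the floor of -7.03. All 6 genes are lowest on day 2 or at the floor there in both genotypes, and Pitx1, Hoxd8, Hoxd9 and Hoxd10 peak on day 5 in Dnmt3a-KO cells.

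All 5 Hoxd genes tested rose over the days, by 0.47 to 0.75 log2 units per day. Hoxd10 met the filter of 4 arrays through days 4 to 6 alone, and Hoxd11 through days 5 and 6 alone. The filter thus favoured a rise in both, and their p-values do not allow for it. With slide as a random block 2 of the 5 passed, Hoxd9 and Hoxd10, and with normexp background correction 2 passed, Hoxd8 and Hoxd9, with slopes of 0.05 to 0.24 for the 5 genes. In the embryo these genes act in the trunk and the limb bud, and the promoters of 3 of them are shown above. Fits for Hoxd4, Hoxd9, Hoxd10, Hoxd11 and Pitx1 hold day 2 values at the floor, so their slopes depend on that floor. Hoxd8 signal was 5.20, 11.7, 40.6 and 22.6% of the 75th percentile in Dnmt3a-KO cells on days 2, 4, 5 and 6, against 2.67, 18.2, 21.4 and 16.5% in WT cells. Day 2 was the lowest day in both. Hoxd8 was detected on every array and rose by 0.67 ± 0.15 per day (SE, limma adjusted p = 0.016), a call lost with slide as a random block (limma adjusted p = 0.052). Its signal on days 4 to 6 was 4.24-fold that of day 2 in Dnmt3a-KO cells and 6.96-fold in WT cells.

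Hoxd9 signal was 1.28, 3.24, 12.1 and 7.29% in Dnmt3a-KO cells over the 4 days. In WT cells it was not well above background on day 2 and was 3.76, 5.08 and 6.04% on days 4, 5 and 6. The values of days 4 to 6 lay above those of day 2 in both genotypes, 5.14-fold in Dnmt3a-KO cells and at least 4.99-fold in WT cells. Hoxd9 had the steepest slope of the Hox genes, 0.75 ± 0.12 per day (SE, limma adjusted p = 0.011). Hoxd10 was not well above background on either day 2 array or on Dnmt3a-KO day 4. It reached 6.49 and 3.68% in Dnmt3a-KO cells on days 5 and 6, against 2.71, 3.75 and 4.65% in WT cells on days 4, 5 and 6. Over both genotypes its later signal was at least 4.01-fold that of day 2 (slope 0.67 ± 0.11 per day, SE, limma adjusted p = 0.011). The later mean of Hoxd10 holds the unflagged Dnmt3a-KO day 4 value as measured.

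Hoxd11 was first detected on day 5 in both genotypes, as Hoxd10 was in Dnmt3a-KO cells. It was 3.06 and 3.41% in Dnmt3a-KO cells on days 5 and 6, against 3.19 and 2.25% in WT cells, and not well above background before that. The unflagged WT signal of day 4 measured 2.32%, slightly above the flagged one of day 6. Later Hoxd11 signal was at least 2.55-fold that of day 2 (slope 0.52 ± 0.13 per day, SE, limma adjusted p = 0.019). The later mean of Hoxd11 holds the unflagged day 4 values of both genotypes as measured. Hoxd4, from the other side of the cluster, was 1.06, 2.87 and 3.93% in Dnmt3a-KO cells on days 2, 4 and 5, against 3.80, 4.51 and 3.86% in WT cells on days 4, 5 and 6. It was not well above background on Dnmt3a-KO day 6 and WT day 2. It rose by 0.47 ± 0.14 per day (SE, limma adjusted p = 0.034), but on days 4 to 6 alone the slope was -0.11. None of the 5 Hoxd genes kept 1 sign of the genotype difference over the days, and their mean differences ran from -0.26 to 0.52 with limma adjusted p of 0.45 or more.

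Markers of other cell types moved over the same days. Of 13 tested fibroblast markers, 6 rose (46.2%, against 25.9% of all genes) and 1 fell (7.69%, against 19.5%) over the days (limma adjusted p under 0.05), with a median slope of 0.64 per day. Of 4 tested macrophage and leukocyte markers 3 rose and 1 fell, of 5 smooth muscle and pericyte markers 2 rose and 2 fell, of 4 endothelial markers 1 rose, and of 6 Schwann cell markers 2 rose and 1 fell. These 4 lists are too short to be read against those shares. None of these lists had a member past the threshold for genotype. At an unadjusted p under 0.05 there were 4 fibroblast markers (30.8%, against 12.9% of all genes), 1 smooth muscle and 1 endothelial marker. The summed signal of the macrophage list was 871 to 2104 in Dnmt3a-KO cells and 1008 to 2060 in WT cells, with Cd68 and Lyz2 on no array. The endothelial sum was 248 to 391.8 in Dnmt3a-KO cells and 232 to 402 in WT cells, with Tek on no array. The smooth muscle sum was 309.7 to 796 in Dnmt3a-KO cells and 463 to 698 in WT cells, and the Schwann cell sum was 39.9 to 75.3 in Dnmt3a-KO cells and 41.5 to 127 in WT cells. Their part in the Hox results was not tested.

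Of the Hoxb genes detected on every array, Hoxb2 and Hoxb4 differed most between genotypes on a single day, with opposite signs on others. Hoxb2 signal was 3.73, 1.59, 3.51 and 4.41% in Dnmt3a-KO cells on days 2, 4, 5 and 6, against 2.43, 6.64, 2.78 and 5.72% in WT cells. Hoxb4 signal was 11.3, 7.04, 11.2 and 18.3% in Dnmt3a-KO cells, against 7.79, 17.3, 8.26 and 19.2% in WT cells. In both genes the Dnmt3a-KO array was the dimmer on days 4 and 6 and the brighter on days 2 and 5. These are again the signs of the fibroblast sum, on day 2 only with Col1a2 in it. The smooth muscle and Schwann cell sums had these signs too, on all 4 days. Of the single fibroblast markers only Col1a1 and Col1a2 had these signs on all 4 days. Pdgfra was higher in Dnmt3a-KO cells on all 4 days, and Col3a1, Tcf7l2 and Pi16 were lower on all 4. The rest of the list had other signs or stood at the floor on some days. On day 4 the log2 difference was -2.06 for Hoxb2 and -1.29 for Hoxb4, while the means over the days were -0.37 ± 1.2 and -0.10 ± 0.84 (SD over 4 days, limma adjusted p = 0.76 and 0.92). The slopes of 0.15 ± 0.14 and 0.20 ± 0.12 per day (SE) did not pass the threshold (limma adjusted p = 0.41 and 0.20).

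Hoxb7 crossed the detection limit in opposite directions. It was at least 3.11-fold higher in Dnmt3a-KO cells on day 2. On day 4 it was at least 2.65-fold higher in WT cells and on day 6 at least 1.96-fold. With 3 detected arrays it was not tested.

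**Figure D4:**
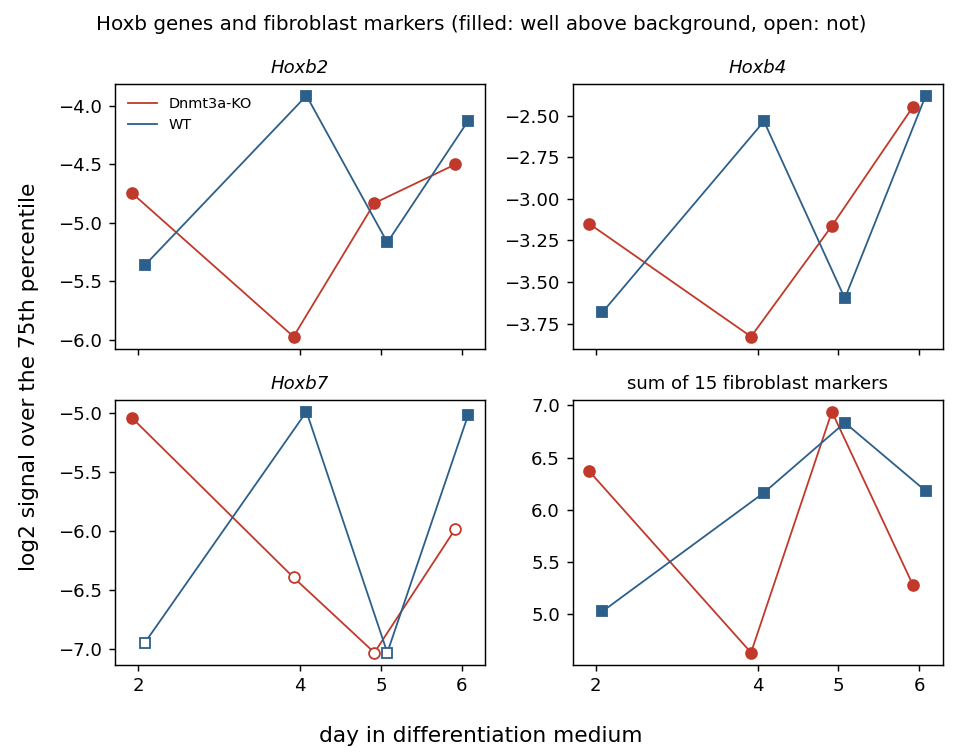
Log2 signal over the 75th percentile of Hoxb2, Hoxb4 and Hoxb7 and of the sum of 15 fibroblast markers against day, Dnmt3a-KO as circles and WT as squares, 1 array a point; open symbols were not well above background. On day 4 all 4 panels show the Dnmt3a-KO array below WT. The day 4 sum of every other cell type list, the myogenic one included, was also lower in Dnmt3a-KO cells.

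Hoxb6 behaved otherwise. Its signal was 32.0, 17.2, 12.1 and 15.3% in Dnmt3a-KO cells, against 33.3, 22.5, 14.6 and 18.7% in WT cells, lower in Dnmt3a-KO cells on 4 of 4 days. The mean difference was -0.25 ± 0.14 (SD over 4 days, limma adjusted p = 0.33). Hoxb6 fell by 0.28 ± 0.07 log2 units per day (SE, limma adjusted p = 0.018), with the highest signal on day 2 in both genotypes. Hoxb3, read by its homeodomain probe, was 5.01 and 3.14% in Dnmt3a-KO cells on days 2 and 4, against 5.21 and 2.59% in WT cells, and not well above background later. It fell by 0.35 ± 0.09 per day (SE, limma adjusted p = 0.025). Hoxb3 met the filter through days 2 and 4 alone, so the filter favoured a fall, and the p-value does not allow for it.

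The Hoxc cluster held the members with the largest differences of 1 sign. Hoxc6, which lies in the middle of the cluster and marks the thoracic level in the embryo, was 236, 138, 139.5 and 133% of the 75th percentile in Dnmt3a-KO cells on days 2, 4, 5 and 6. In WT cells it was 142, 93.4, 109.7 and 104%. The Dnmt3a-KO array was the brighter on 4 of 4 days, by 0.73, 0.56, 0.35 and 0.35 log2 units. The mean of 0.50 ± 0.18 (SD over 4 days) corresponds to 1.41-fold and had the lowest adjusted p of the members (limma, 0.18). It ranged from 0.41 to 0.55 under the alternatives tried, with adjusted p of 0.086 or more. Hoxc6 also fell over the days, by 0.16 ± 0.05 per day (SE, limma adjusted p = 0.041), with a slope of 0.03 on days 4 to 6 alone.

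Hoxc5, next to Hoxc6, was 3.58, 3.27, 4.27 and 4.37% in Dnmt3a-KO cells, against 2.69 and 2.58% in WT cells on days 2 and 4, and it was not well above background in WT cells on days 5 and 6. Signal was higher in Dnmt3a-KO cells by 0.41 (day 2) and 0.34 (day 4) log2 units, and by at least 2.59-fold on day 5 and 2.68-fold on day 6. The mean difference with the dim values as measured was 0.89 ± 0.59 (SD over 4 days, limma adjusted p = 0.29). It was 0.11 with normexp background correction and 0.51 from the deposited table. The difference itself had a slope of 0.29 ± 0.10 per day (SE), with an unadjusted p of 0.029 that did not pass the threshold after adjustment (limma). Hoxc8, an adjacent trunk gene, was 2.67, 3.62, 2.64 and 3.99% in Dnmt3a-KO cells, against 1.42% in WT cells on day 2. On the 3 later days WT signal measured 1.63, 2.44 and 1.88%, higher than on day 2, but was not flagged as well above background. Hoxc8 was at least 2.23-fold higher in Dnmt3a-KO cells on day 4, 1.08-fold on day 5 and 2.12-fold on day 6. Its mean difference was 0.82 ± 0.48 (SD over 4 days, limma adjusted p = 0.26), and 0.085 with normexp.

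**Figure D5:**
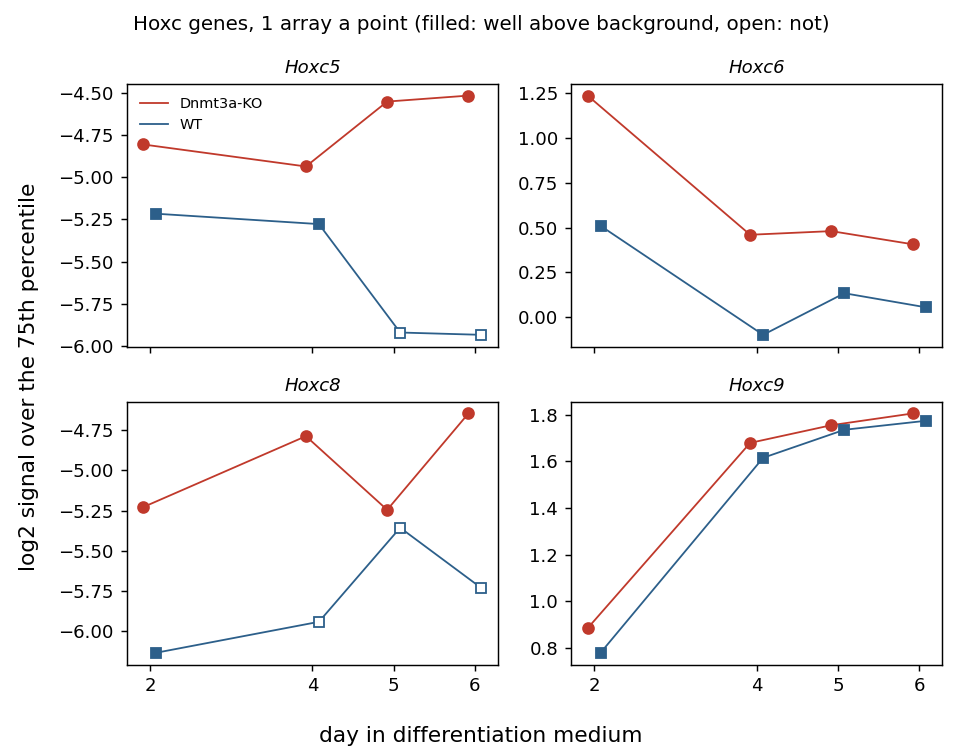
Log2 signal over the 75th percentile of Hoxc5, Hoxc6, Hoxc8 and Hoxc9 against day, Dnmt3a-KO as circles and WT as squares, 1 array a point; open symbols were not well above background. The Dnmt3a-KO array lies above WT on each day in Hoxc5, Hoxc6 and Hoxc8, and the lines of Hoxc9 nearly coincide.

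These 3 probes lie apart along chromosome 15 on the plus strand, Hoxc8 at chr15:102821238-102821297, Hoxc6 at chr15:102842243-102842302 and Hoxc5 at chr15:102847783-102847842 (mm9). No mm9 annotation was used, so which exon each probe hits is not given here. Hoxc4, on one side, had a mean difference of 0.03 ± 0.14 (SD over 4 days). Hoxc9, on the other, was 184, 320.4, 338 and 349.8% in Dnmt3a-KO cells and 171, 306, 333 and 342% in WT cells, a mean difference of 0.06 ± 0.04 (SD over 4 days, limma adjusted p = 0.73). Hoxc9 rose by 0.25 ± 0.04 per day (SE, limma adjusted p = 0.012), to 1.82-fold of day 2 in Dnmt3a-KO cells and 1.91-fold in WT cells.

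The Hoxc genes of the tail end were all detected. Hoxc13 was 40.5, 48.2, 48.2 and 45.6% in Dnmt3a-KO cells and 29.2, 49.8, 55.5 and 53.6% in WT cells, with a slope of 0.14 ± 0.05 per day (SE, limma adjusted p = 0.063). Hoxc11, read within its homeodomain, was 47.8, 53.6, 40.9 and 45.9% in Dnmt3a-KO cells and 48.1, 56.7, 46.3 and 50.02% in WT cells. Its difference had 1 sign on 4 days but a mean of only -0.10 ± 0.07 (SD over 4 days, limma adjusted p = 0.57). Hoxc10 had a mean difference of -0.15 ± 0.12 and Hoxc12, the other one read within its homeodomain, of -0.07 ± 0.78 (SD over 4 days), with Hoxc12 at -1.17 on day 5.

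The Hoxa cluster was the most evenly detected, and its differences were mostly small. Hoxa13, the gene of the outermost limb, was 3.03, 5.67, 6.53 and 6.93% in Dnmt3a-KO cells, against 5.02, 14.3, 9.05 and 8.26% in WT cells. It was lower in Dnmt3a-KO cells on 4 of 4 days, by -0.70 ± 0.47 log2 units (SD over 4 days), a 1.62-fold higher signal in WT cells (limma adjusted p = 0.30). Its slope of 0.24 ± 0.09 per day (SE) had a limma adjusted p of 0.072. Hoxa2 had a mean difference of -0.32 ± 0.26 with adjusted p = 0.36, and Hoxa4 of -0.21 ± 0.19 with adjusted p = 0.43 (limma, SD over 4 days).

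Hoxa5 and Hoxa7 lay on the other side of 0. Hoxa5 was 15.5, 8.58, 7.33 and 7.19% in Dnmt3a-KO cells, against 13.1, 7.25, 6.01 and 5.92% in WT cells. The log2 difference was nearly equal on the 4 days, 0.24, 0.24, 0.29 and 0.28, so the mean was 0.26 ± 0.02 (SD over 4 days, limma adjusted p = 0.25). Hoxa7 was 253, 372, 271 and 428% in Dnmt3a-KO cells, against 227, 296, 238 and 315% in WT cells, a mean difference of 0.28 ± 0.13 (SD over 4 days, limma adjusted p = 0.30). Both stayed below a 1.5-fold difference on each day.

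Over the days Hoxa5 fell by 0.30 ± 0.04 log2 units per day (SE, limma adjusted p = 0.0097), the lowest adjusted p of the members for the slope. Its signal on day 2 was 2.02-fold that of days 4 to 6 in Dnmt3a-KO cells and 2.06-fold in WT cells. Hoxa6, its neighbour, was 6.12, 4.45, 4.04 and 3.76% in Dnmt3a-KO cells and 5.55, 3.93, 4.48 and 4.26% in WT cells, and fell by 0.13 ± 0.04 per day (SE, limma adjusted p = 0.033). Hoxa11, a gene of the middle limb segment, was 124, 187, 201 and 217% in Dnmt3a-KO cells and 142, 207, 196 and 173% in WT cells. It rose by 0.14 ± 0.05 per day (SE, limma adjusted p = 0.048), with a slope of -0.01 on days 4 to 6 alone. Hoxa3, Hoxa9 and Hoxa10 had mean genotype differences of -0.05, 0.05 and 0.10 and slopes that did not pass the threshold.

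Single days have no test. A member was counted where the 2 arrays of a day differed by 2-fold or more and the brighter one passed the background flag. On day 2, 2 members were that much higher in Dnmt3a-KO cells, Pitx1 and Hoxb7 (5% of the 40, against 1.81% of all 31732 genes), and 0 were lower (against 1.4%). On day 4, Hoxc8 was higher (2.5% against 1.52%), and Hoxa13, Hoxb2, Hoxb4 and Hoxb7 were lower (10% against 2.45%). On day 5, Hoxc5 and Hoxd9 were higher (5% against 1.05%) and Hoxc12 was lower (2.5% against 1.94%). On day 6, Hoxc5 and Hoxc8 were higher (5% against 1.57%) and Pitx1 was lower (2.5% against 1.75%). Hoxc5 and Hoxc8 were the members counted on 2 days in 1 direction.

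Genes that work with the Hox proteins or set their expression were examined from lists. Of 9 TALE cofactors, homeodomain partners that bind DNA with Hox proteins, all were tested and 0 passed for genotype (limma). At an unadjusted p under 0.05 there was 1 (11.1%, against 12.9% of all genes), a share near the background. That one was Pknox2 with a mean log2 difference of -0.46, lower in Dnmt3a-KO cells on 4 of 4 days, as were 11.5% of all genes. Over the days 2 cofactors rose and 2 fell (22.2% each, against 25.9% and 19.5% of all genes). Of 24 tested Polycomb and Trithorax genes, which hold Hox clusters silent or active, 0 passed for genotype, with 1 at an unadjusted p under 0.05 (4.17%, against 12.9% of all genes). It was Ezh1, a Polycomb methyltransferase, at 0.35 higher in Dnmt3a-KO cells (log2, limma adjusted p = 0.24). Over the days 2 rose (8.33%, against 25.9% of all genes) and 10 fell (41.7%, against 19.5%), among them Ezh2, Suz12 and Jarid2.

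Among 12 tested limb factors 0 passed for genotype (limma) and 5 had an unadjusted p under 0.05 (41.7%, against 12.9% of all genes), with a median difference of -0.25. Tbx4, the partner of Pitx1 in the hindlimb, was 16.9, 15.5, 15.2 and 23.6% of the 75th percentile in Dnmt3a-KO cells, against 34.8, 51.1, 43.5 and 43.1% in WT cells. Tbx4 was lower in Dnmt3a-KO cells on 4 of 4 days, as were 11.5% of all genes, and its mean log2 difference was -1.29 (limma adjusted p = 0.11). Over the alternatives the adjusted p of Tbx4 ran from 0.011 to 0.58 (limma), past the threshold with day as a random block (0.011) and with an intensity trend (0.041). Pitx3, a paralogue of Pitx1 expressed in muscle, was lower in Dnmt3a-KO cells on 4 of 4 days with a mean of -0.97 (limma adjusted p = 0.083). Pitx3 passed under 4 alternatives, with limma adjusted p of 0.0095 (normexp), 0.024 (intensity trend), 0.042 (filter on all 8 arrays) and 0.044 (slide as a block), and with no day block it was at its highest, 0.9999. The forelimb factor Tbx5 and the genes Isl1, Cdx1, Cdx2 and Cdx4 were well above background on no array. Of 4 Evx genes and cluster noncoding RNAs on the array, Evx1 was on none, and Evx2, beside Hoxd13, rose over the days at 0.46 per day (limma adjusted p = 0.0088), though by 0.026 with normexp (limma adjusted p = 0.17). Hoxa11os, the antisense transcript of Hoxa11, had a mean difference of -0.18 (limma adjusted p = 0.46).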

How the data were processed

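Spot intensity was deposited as scanner output of 8 one-colour arrays, extracted per the file headers by Agilent's software in version 11.0.1.1 (scanner G2505C, day 2) or 9.5.3.1 (scanner G2505B, days 4 to 6); the submitters' processing notes name Feature Extraction 9.5. A deposited table holds a score per spot, which matched the processed intensity times 100 over the array's 75th percentile, within 1 unit for 100% of spots. Processed intensity was divided by each array's 75th percentile of 43020 non-control spots (719.5 to 1528.1 intensity units), floored at 0.00763 (-7.03 on the log2 scale) and put on the log2 scale. Outlier-flagged spots were left out and spots of a probe averaged. Of 39429 probes, 26055 were named by RefSeq accession and the rest by the array files. The probe with the highest mean stood for a gene, and the 19655 genes flagged above background on 4 or more arrays were tested.

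Tests used limma 3.58.1 in R 4.3.3 with Benjamini-Hochberg adjustment over all genes tested and a threshold of 0.05: the genotype effect (Dnmt3a-KO minus WT) in a model with a term for each day, leaving 3 residual degrees of freedom, the slope per day beside a genotype term (5), and their interaction (4). The steps were tested on simulated data. "At least" folds compare with the dim probe or with the dimmest probe of the same array that passed the background flag, whichever was brighter. Members and gene lists were chosen with earlier results of these data known. The lists were TALE cofactors, Polycomb and Trithorax regulators, limb factors, Evx genes and cluster noncoding RNAs, and myogenic, fibroblast, endothelial, smooth muscle and pericyte, macrophage and leukocyte, and Schwann cell markers. Values per array are given for Pitx1, for members past a threshold, and for up to 2 members per cluster and direction with the largest genotype difference of 1 sign or the largest slope. Hoxb7 and the genes named from the lists beyond the 2 largest per direction were chosen after their values were seen. Alternatives covered scaling, background correction, the filter, probes per gene, the variance model, blocks, the deposited score and leaving out each day; leaving Col1a2 out of the fibroblast sum was added after the data were seen. One member and 1 probe sequence are not reported here. RefSeq tables of GRCm38.p6 gave names and promoters only.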

Additional observations from a re-analysis of the deposited data

Results flagged for a closer look

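In 7 of 60 groups of 4 arrays (a tested member in 1 genotype), 1 array stood apart from the other 3 days by more than Dixon's limit. In all 7 it was the day 2 array. For any of the 4 arrays, chance passes this limit in about 1 of 20 independent groups. The 60 groups share arrays, so this rate cannot be set against the count. The day 2 log2 signals were 1.24 for Hoxc6 in Dnmt3a-KO cells, 0.88 for Hoxc9 in Dnmt3a-KO cells and 0.78 for Hoxc9 in WT cells. They were -1.78 for Hoxc13, -5.22 for Hoxd8, and -7.03, the floor, for both Hoxd4 and Pitx1, all in WT cells. Hoxc6 was high on day 2, and the other 6 values were low. Slide, scanner, software version and sex-linked transcripts differ on the same day and cannot be told apart from it.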

How the results depend on the processing

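For the genotype effect 0 members passed the threshold under each of 15 alternatives, while the count over all genes, 2 in the fit reported, ranged from 0 (quantile scaling, median scaling, no filter, the deposited score, no day block) to 128 (day as a random block), with 19 for slide as a block, 36 for normexp, 38 for the filter on all 8 arrays and 88 for an intensity trend. Leaving out a day gave 0 to 3 genes. Normexp, which adds an offset, made the differences of dim members smaller, 0.11 for Hoxc5, 0.085 for Hoxc8, 0.083 for Hoxa5, -0.20 for Hoxa13 and -0.088 for Hoxb6. The limb factors Tbx4 and Pitx3 passed under 2 and 4 alternatives. The mean Pitx1 difference was -0.054 with normexp and -0.39 to 0.58 without 1 day. For the slope, 13 members passed in the fit reported, 8 with the filter on all 8 arrays, 6 with slide as a random block, 0 on days 4 to 6 and 0 to 16 without 1 day. Over all genes the count of 8920 became 1935 with slide as a random block, and 0 to 9863 without 1 day. Slopes without 1 day ran from -0.012 to 0.21 for Hoxa11, -0.21 to 0.025 for Hoxc6 and -0.11 to 0.77 for Hoxd4, each at its end of opposite sign on days 4 to 6. Counts of undetected members were 8 and, with the less strict flag, 5. The fibroblast sum on day 2, Dnmt3a-KO minus WT, was -39.5 without Col1a2. The cause of these changes was not tested. At 1.5-fold in place of 2-fold, 7 members were higher on day 2 and 7 lower on day 4. Dim probes limit the Hoxb and Hoxd values, and 1 array per genotype and day limits all of them. The genotype fit pairs the 2 arrays of a day, and without that day block 0 members passed.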
